A study of Mus musculus with 5 samples.

Results

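The genes described here are 36 genes of glycolysis and of lactate and pyruvate handling, chosen by symbol from a fixed list: enzymes from hexokinase to lactate dehydrogenase, glucose and monocarboxylate transporters, the PFKFB enzymes, the mitochondrial pyruvate carriers, and the E1 subunits and kinases of pyruvate dehydrogenase. All 36 were found among the 51912 genes of the authors' deposited table, and all 36 had an adjusted p, as did 17420 genes in all. The study measured polyadenylated RNA from C57BL/6 mice after stroke (3 libraries) or a sham operation (2 libraries). Stroke was a filament occlusion of the middle cerebral artery for 30 minutes under ketamine and xylazine, and mice entered the study when cerebral blood flow dropped by at least 80%. A motor score was taken at 24 hours. The time of RNA collection, the tissue or hemisphere taken, the age and sex of the mice, and whether each library came from 1 mouse are not stated in the labels, so p-values measure the spread between these libraries, which may be technical. The labels name no genetic change in either group.

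Glycolysis turns glucose into pyruvate in the cytosol and yields ATP without oxygen. Pyruvate is then either reduced to lactate by lactate dehydrogenase, which restores NAD+, or carried into mitochondria and oxidised by pyruvate dehydrogenase, an enzyme that its kinases switch off by phosphorylation. In brain, lactate moves between cells through monocarboxylate transporters, and hypoxia-inducible factors are known to raise transcription of several glycolytic genes when oxygen is short.

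The authors deposited 1 comparison and no values per library. Whole reads per library were recovered from it by arithmetic for 32 of the 36 genes (16179 of the 17420 tested genes). Each was the single set of whole numbers that gave the deposited mean, fold change and error with a dispersion that matched a fitted model. The recovered genes hold 8910216 and 11134722 reads in the sham libraries, called here the shallower and the deeper one, and 14719196, 14025394 and 13527085 in stroke libraries A, B and C. These names carry no replicate number, because the arithmetic tells the groups apart but not the labelled replicates. Aldoa, Aldoc, Eno2 and Pkm were too abundant for the arithmetic and have no values per library. Values per library below are normalized reads, that is, recovered reads divided by the library's size factor.

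The deeper sham library stood apart from the other 4. It held 7081 normalized reads of Xist, the RNA that coats the inactive X chromosome of female cells, against 2.65 to 5.45 in the others. It held 12947 of Ttr, a choroid plexus gene, against 15 to 69.5, and 1.06 of the ribosomal protein gene Rps29, against 1724 to 2114. The 4 choroid plexus markers summed to 13816 normalized reads in it and to 191 in the shallower sham, with 150 to 188 in stroke. The 5 erythrocyte markers summed to 2801 and 474 in the sham libraries and to 67.2 to 230 in stroke. The part of these differences in the results below was not tested. Both sham values are therefore given for the genes described by library.

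Of the 36 genes, 1 (Eno1) passed an adjusted p of 0.05 as higher in stroke in the authors' deposited table, against a background of 0.775% of all tested genes. None was called lower (background 0.786%). At an unadjusted p under 0.05 the authors' deposited table had 8 of the 36 higher (4.84% of all tested genes) and 0 lower (5.66%). Fold changes were above 0 for 28 of the 36 genes, against 47.2% of all tested genes. In the authors' deposited table the median log2 fold change was 0.24 over the 36 genes and -0.02 over all tested genes. In the recovered reads every stroke library lay above both sham libraries for 15 of 32 genes (13.1% of all recovered genes) and below both for 2 of 32 (11.7%). Recovered genes with a mean above 5000 are only those listed here, so these shares compare unlike ranges of abundance. The median SE in the authors' deposited table was 0.24 over the 36 genes and 0.33 over all tested genes. Against the shallower sham alone, the mean of the stroke libraries was higher for 25 of the 32 genes (52.2% of all recovered genes), and every stroke library was above it for 20 (39%). Against the deeper sham alone the mean was higher for 25 of the 32 (50.1%), and every stroke library was above it for 19 (32.8%). All 8 neuron markers also have a positive fold change in the authors' deposited table (median 0.15 on the log2 scale, from 0.01 to 0.35), and 0 of 6 oligodendrocyte markers do (median -0.32), with none called in either list. Microglia markers were positive for 5 of 6 (median 0.37), endothelial for 5 of 7 (0.29), skeletal muscle for 3 of 4 (0.26) and neutrophil for 2 of 3 (0.43). Astrocyte markers were positive for 3 of 8 (-0.11), erythrocyte for 0 of 5 (-3.58) and choroid plexus for 0 of 4 (-3.36). The part of these markers in the counts above was not tested. With limma on the recovered reads and all libraries, 0 of the 32 genes were called, against 0.0185% of genes higher and 0.00618% lower. Without the deeper sham 2 were higher (background 9.05%) and 0 lower (9.16%), and without the shallower sham 5 were higher (2.08%) and 0 lower (1.29%). Without stroke A, B or C 0 of the 32 were called, against 0.00618%, 0.0124% and 0.0124% of genes higher, and 0.00618% lower without B.

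**Figure D1:**
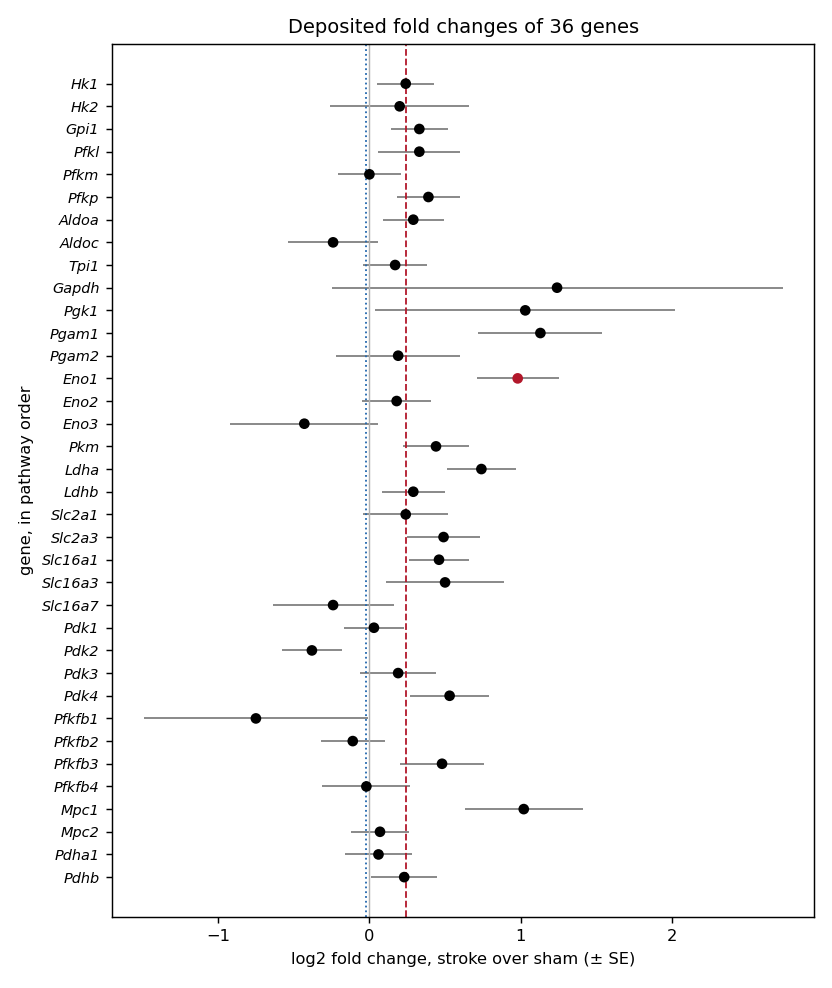
Log2 fold change of stroke over sham (x axis, points with bars of 1 SE) for each of the 36 genes (y axis), from the authors' deposited table. Eno1, the gene with an adjusted p under 0.05, is red; the dashed line is the median of the 36 genes at 0.24 and the dotted line that of all tested genes at -0.02.

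The triose to pyruvate kinase steps held the largest positive fold changes. Enolase 1, which makes phosphoenolpyruvate and is the enolase of most cell types, is encoded by Eno1 on chromosome 4 (GRCm38, 150236721 to 150248879, plus strand). Eno1 had 2593 and 1633 normalized reads in the shallower and deeper sham libraries and 4414, 4516 and 3560 in stroke A, B and C. All 3 stroke libraries were above both sham libraries, and the sham libraries also differed from each other. The authors' deposited table gives Eno1 a log2 fold change of 0.98 (SE 0.27) with a DESeq2 adjusted p of 0.0287. With limma on the recovered reads the Eno1 difference was 1.01 (SE 0.24) on the log2(value + 1) scale and was not called (adjusted p = 0.549). Without the deeper sham it was 0.67 (limma adjusted p = 0.0397) and without the shallower sham 1.34 (limma adjusted p = 0.00835), fits in which the lone sham library is assumed to vary like the stroke libraries.

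Gapdh, Pgk1 and Pgam1 act just before enolase and differed most between the sham libraries. Gapdh, the enzyme that makes NADH in glycolysis, had 8134 normalized reads in the shallower sham, 171 in the deeper sham, and 10796, 10312 and 8348 in stroke A, B and C. Pgk1, the first ATP-yielding kinase of the pathway, had 1442 and 169 in the sham libraries and 1807, 1667 and 1472 in stroke. Pgam1, a phosphoglycerate mutase, had 811 and 290 in the sham libraries and 1310, 1267 and 1039 in stroke. The stroke libraries of all 3 genes lay above both sham libraries, but stroke C was close to the shallower sham for Gapdh and Pgk1, and the deeper sham was far below every other library. Gapdh stands in the authors' deposited table at 1.24 on the log2 scale, with an SE of 1.49 (adjusted p = 0.914). The authors' deposited table gives Pgk1 1.03 (SE 0.99, adjusted p = 0.862) and Pgam1 1.13 (SE 0.41, adjusted p = 0.166). Without the deeper sham, the log2 ratio of mean stroke to sham reads was 0.27 for Gapdh, 0.19 for Pgk1 and 0.57 for Pgam1. Without the shallower sham it was 5.84, 3.28 and 2.06 for the same genes.

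**Figure D2:**
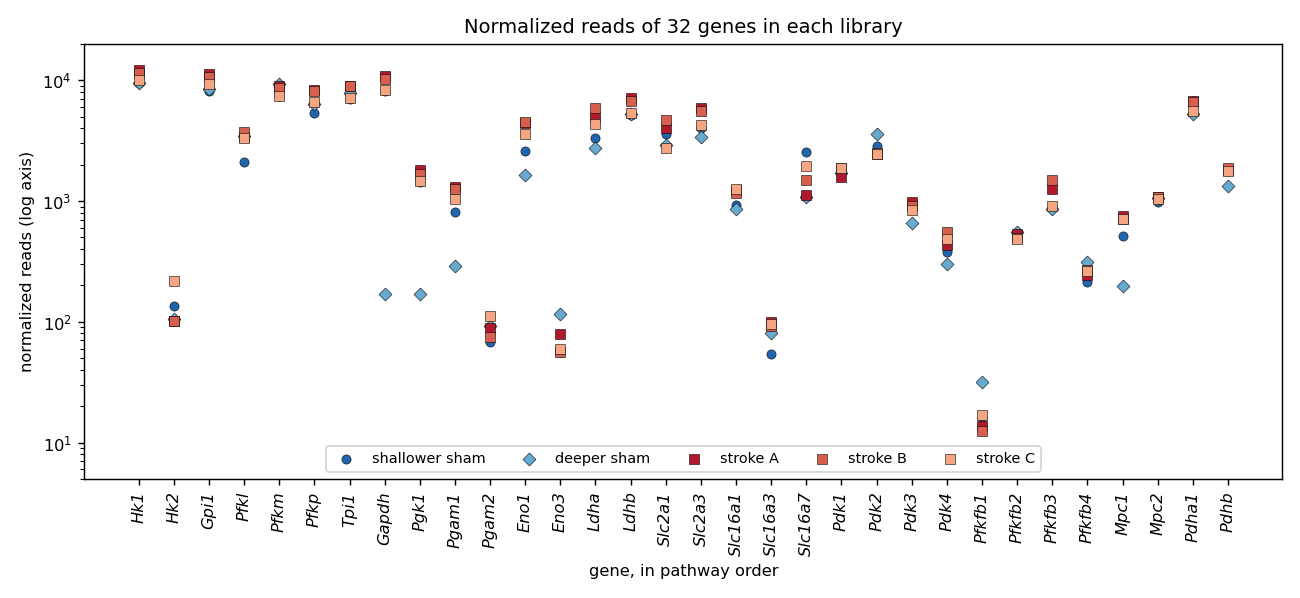
Normalized reads (y axis, log scale) of the 32 genes with recovered reads (x axis) in 2 sham and 3 stroke libraries, 1 point per library. Gapdh and Pgk1 sit at 171 and 169 in the deeper sham and at 1442 or more in every other library.

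The other genes of these steps differed less. Tpi1, triose phosphate isomerase, had 7069 and 7790 normalized reads in sham and 9027, 8916 and 7148 in stroke, which overlap. Pkm, pyruvate kinase, stands in the authors' deposited table at 0.44 on the log2 scale (SE 0.22, p = 0.0497, adjusted p = 0.474). Eno2, the neuronal enolase, stands in the authors' deposited table at 0.18 (SE 0.23, adjusted p = 0.923). The muscle forms were scarce: Eno3 had 55.9 and 117 normalized reads in sham and 78.7, 55.7 and 59.1 in stroke, and Pgam2 lay between 68.1 and 112 over all 5 libraries. For Eno3 the authors' deposited table lists -0.43 on the log2 scale (SE 0.49, p = 0.373, adjusted p = 0.904). Both genes overlapped between groups, and the 4 skeletal muscle markers with recovered reads, of 6 listed, summed to 131 and 193 in sham and 228 to 282 in stroke, whose part was not tested.

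Several of the genes that were low in the deeper sham share much of their sequence with other genes. For each gene 1 annotated transcript was used (GENCODE M21, GRCm38), the longest, with protein-coding ones preferred. Every 50-base word of it was looked up, on either strand, in the transcript kept for each other gene. For Gapdh 82.5% of its words were found elsewhere, for Pgk1 and Eno1 68%, for Pgam1 41.5% and for Mpc1 23.2%. Gapdh shares at least 20 words with each of 137 pseudogenes. One coding word of Gapdh, on the minus strand at chr6:125162898-125162947, stands letter for letter in 80 annotated pseudogenes. It lies in exon 4 of a transcript of 1273 bases, while the shares above used the one of 1420 bases. It is shown because a read made of it cannot be placed on 1 gene, and since all 50 bases are shared none is in capitals.
Gapdh word: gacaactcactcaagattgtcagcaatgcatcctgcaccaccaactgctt
In the authors' deposited table the coding copy Eno1b, which shares 1311 words with Eno1, has a mean of 0.526 normalized reads. The pseudogene Mpc1-ps, which shares 212 words with Mpc1, had 58.6 and 27.5 normalized reads in sham and 126, 91.9 and 109 in stroke, and like Mpc1 was lowest in the deeper sham. The 21 Gapdh pseudogenes with recovered reads summed to 410 and 458 normalized reads in sham and 417, 391 and 371 in stroke, so their sum was no lower in the deeper sham. Values of Gapdh, Pgk1, Eno1 and Pgam1 are uncertain to the extent that reads were split or dropped between copies, and how the authors treated such reads is not stated in the labels.

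Over coding genes with a mean of at least 100, the median log2 ratio of the deeper to the shallower sham was 0.15 for the 5708 genes with no shared word and -0.35 for the 260 genes with more than 50% shared. The ratio was at most -1 in 3.56% of the first and in 30% of the second. Among the 32 genes, 5 had such a ratio (12.7% of all recovered genes): Gapdh at -5.57, Pgk1 at -3.09, Pgam1 at -1.48, Mpc1 at -1.39 and Slc16a7 at -1.25. Slc16a7 has 0.27% of its words elsewhere, so the order did not hold for it. The part of shared sequence in the fold changes was not tested.

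**Figure D3:**
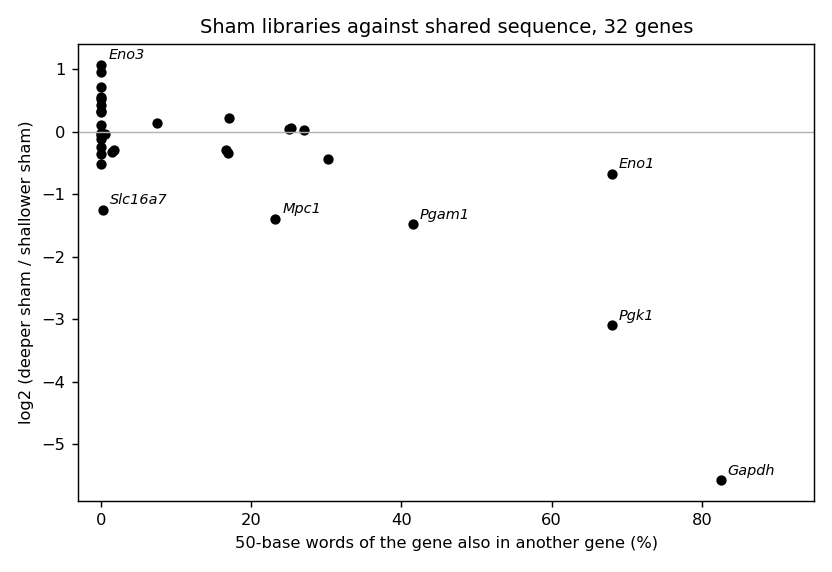
Log2 ratio of the deeper to the shallower sham library (y axis) against the percentage of a gene's 50-base words that another gene also holds (x axis), 1 point for each of the 32 genes. Gapdh, at 82.5% shared, lies at -5.57, while Eno1, at 68%, lies at -0.67.

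Among the first steps, hexokinase to aldolase, 6 of 8 genes had a positive fold change and 0 were called. Hk1, the main brain hexokinase, had 9550 and 9420 normalized reads in sham and 12107, 11528 and 10015 in stroke. Gpi1, glucose-6-phosphate isomerase, had 8166 and 8504 in sham and 11374, 10744 and 9241 in stroke. Pfkp, the platelet form of phosphofructokinase, had 5413 and 6307 in sham and 8243, 8206 and 6622 in stroke. The stroke libraries of these 3 genes were above both sham libraries, by a margin smaller than the spread among the stroke libraries. Their log2 fold changes in the authors' deposited table are 0.24 (SE 0.19), 0.33 (SE 0.19) and 0.39 (SE 0.21), with adjusted p of 0.786, 0.6 and 0.522.

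Pfkl, the liver form of phosphofructokinase, depended on the sham library. It had 2106 normalized reads in the shallower sham, 3442 in the deeper sham, and 3391, 3758 and 3309 in stroke, so the groups overlapped. Without the deeper sham Pfkl was called higher (0.72 on the log2(value + 1) scale, limma adjusted p = 0.0189), and without the shallower sham the difference was 0.02 (limma adjusted p = 0.964). Pfkm, the muscle form, lay between 7419 and 9312 in the 5 libraries and overlapped. Hk2, the inducible hexokinase, had 136 and 106 in sham and 101, 101 and 216 in stroke, where stroke C alone was high. Per kilobase of transcript Aldoa, an aldolase, had the highest mean of the 36 genes in the authors' deposited table, 18900 normalized reads, and Pfkfb1 the lowest, 10. In the authors' deposited table the log2 fold change is 0.29 (SE 0.2, adjusted p = 0.72) for Aldoa and -0.24 (SE 0.3, adjusted p = 0.916) for Aldoc, the aldolase typical of astrocytes. Of the 8 astrocyte markers, the 6 with recovered reads summed to 12019 and 21190 in sham and to 12630, 15775 and 19689 in stroke, ranges that overlap.

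Ldha, the lactate dehydrogenase subunit that favours making lactate, was next to Eno1 in its p. It had 3338 and 2726 normalized reads in sham and 4926, 5850 and 4386 in stroke. The stroke libraries were all above the sham libraries, and the sham libraries were closer to each other than for Eno1. The authors' deposited table gives Ldha a log2 fold change of 0.74 (SE 0.23, p = 0.00125) with an adjusted p of 0.0671, which misses the threshold. Without the deeper sham its log2 ratio was 0.6 and without the shallower sham 0.89. Ldhb, the subunit that favours using lactate, had 5182 and 5288 in sham and 7085, 6733 and 5348 in stroke, with stroke C close to sham. The ratio of Ldha to Ldhb reads within a library was 0.644 and 0.515 in sham and 0.695, 0.869 and 0.82 in stroke. All 3 stroke ratios were above both sham ratios, and with 2 against 3 libraries an exact two-sided rank-sum test cannot give a p under 0.2.

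The promoters of the glycolytic genes often hold the core that hypoxia-inducible factors bind. ACGTG or GCGTG, on either strand, was found in the 250 bases before 40 of 54 annotated start sites of 34 of the 36 genes (74.1%), against 38.6% of 32851 start sites of all genes (RefSeq, GRCm38.p6). Those 40 start sites belong to 30 genes. The shares are a description: start sites of 1 gene can overlap, and base composition was not matched. The windows of the genes with the smallest p are shown, each for the start site with the most matches (the first by position where start sites tie), with matches in capitals; a CACGTG run is counted on both strands. The Ldha window is chr7:46845554-46845803 (plus strand) and the Eno1 window chr4:150236947-150237196 (plus strand).
Ldha: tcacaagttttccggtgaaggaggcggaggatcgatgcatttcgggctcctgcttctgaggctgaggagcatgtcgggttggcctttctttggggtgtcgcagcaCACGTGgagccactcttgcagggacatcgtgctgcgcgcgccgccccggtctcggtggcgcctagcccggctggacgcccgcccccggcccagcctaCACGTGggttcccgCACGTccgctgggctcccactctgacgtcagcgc
Eno1: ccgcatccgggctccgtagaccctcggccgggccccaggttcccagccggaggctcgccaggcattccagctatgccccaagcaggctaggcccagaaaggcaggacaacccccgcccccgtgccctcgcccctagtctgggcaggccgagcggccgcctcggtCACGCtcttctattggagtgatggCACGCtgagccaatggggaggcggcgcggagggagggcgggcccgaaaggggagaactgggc
The Ldha window holds 5 matches, of which 2 pairs overlap, and the Eno1 window 2. Genes with smaller fold changes also had matches, with 4 in a window of Pfkfb2 and 4 in that of Pdk3. No binding was measured in this study, and a link between matches and fold changes was not tested.

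Both glucose transporters had positive fold changes and neither was called. Slc2a3, the neuronal glucose transporter, had 4044 and 3397 normalized reads in sham and 5865, 5547 and 4238 in stroke, and the authors' deposited table puts its log2 fold change at 0.49 (SE 0.24, p = 0.0381, adjusted p = 0.418). The stroke libraries were above both sham libraries, stroke C by little. Slc2a1, the transporter of the blood-brain barrier, had 3564 and 2921 in sham and 3992, 4707 and 2767 in stroke, where stroke C was the lowest of the 5. The 7 endothelial markers summed to 4432 and 3836 in sham and to 4710, 6494 and 5545 in stroke, above both sham libraries, and their part in the Slc2a1 values was not tested. In bulk RNA, fewer cells of a type and less RNA per cell cannot be told apart.

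The monocarboxylate transporters did not move together. Slc16a1 (MCT1) had 929 and 853 normalized reads in sham and 1238, 1157 and 1269 in stroke. Its stroke libraries were above both sham libraries and differed little among themselves. The authors' deposited table gives Slc16a1 a log2 fold change of 0.46 (SE 0.2, p = 0.0198, adjusted p = 0.312), and the log2 ratio was 0.39 without the deeper sham and 0.52 without the shallower one. Slc16a3 (MCT4), the low-affinity exporter of glycolytic cells, was scarce, with 54.5 and 80.4 in sham and 100, 92.8 and 95 in stroke. Slc16a7 (MCT2), the high-affinity neuronal transporter, had 2545 and 1073 in sham and 1125, 1506 and 1949 in stroke, all between the sham values. The direction for Slc16a7 therefore turned with the sham library, from -0.74 against the shallower to 0.51 against the deeper.

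**Figure D4:**
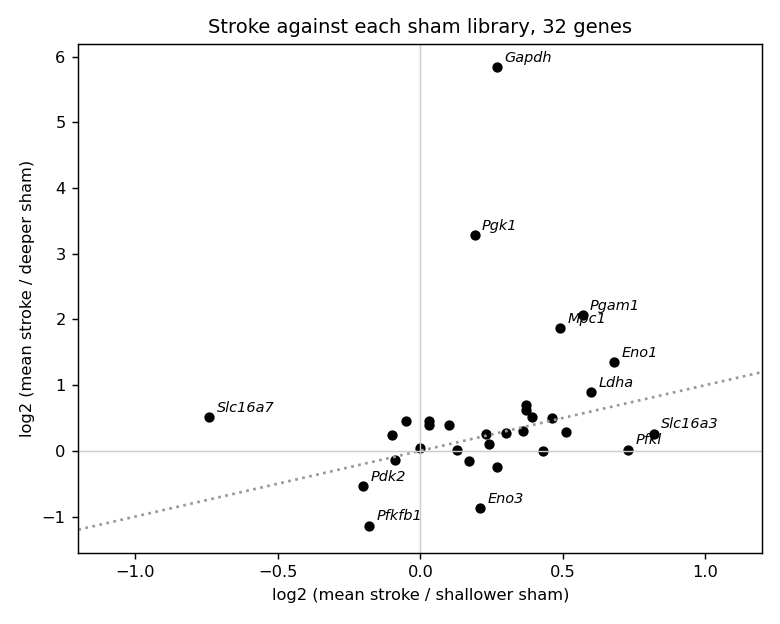
Log2 ratio of the mean of the 3 stroke libraries to the deeper sham (y axis) against the same ratio to the shallower sham (x axis), for the 32 genes with recovered reads; the axes differ in scale and the dotted line marks equal ratios. Gapdh lies at 0.27 and 5.84, and Slc16a7 at -0.74 and 0.51.

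Of the pyruvate carrier subunits, which work as a pair, Mpc1 had 518 and 198 normalized reads in sham and 756, 713 and 708 in stroke. Its stroke libraries were close together and above both sham libraries, which were far apart. The authors' deposited table gives Mpc1 a log2 fold change of 1.02 (SE 0.39, p = 0.00935, adjusted p = 0.217), and its log2 ratio was 0.49 without the deeper sham and 1.87 without the shallower. Mpc2 had 977 and 1056 in sham and 1076, 1077 and 1044 in stroke, almost the same level in each. The ratio of Mpc1 to Mpc2 reads was 0.53 and 0.187 in sham and 0.703, 0.663 and 0.678 in stroke.

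Of the pyruvate dehydrogenase kinases, Pdk4, which fasting and fatty acids induce, had 379 and 302 normalized reads in sham and 433, 551 and 487 in stroke. Pdk2 went the other way, with 2838 and 3570 in sham and 2436, 2491 and 2461 in stroke. Neither gene's groups overlapped, and the 3 stroke values of Pdk2 were close together. In the authors' deposited table the log2 fold change is 0.53 (SE 0.26, p = 0.0403, adjusted p = 0.427) for Pdk4 and -0.38 (SE 0.2, p = 0.0594, adjusted p = 0.512) for Pdk2. The Pdk4 to Pdk2 ratio was 0.133 and 0.0845 in sham and 0.178, 0.221 and 0.198 in stroke. Every stroke library had more Pdk4 and less Pdk2 than both sham libraries, so its ratio had to lie above both sham ratios. The ratio is therefore not a further result, and this pair was chosen after its values were seen. Pdk1 and Pdk3 overlapped between groups. The E1 subunit genes Pdha1 and Pdhb overlapped too, and the authors' deposited table puts them at 0.06 (SE 0.22) and 0.23 (SE 0.22) on the log2 scale. Pdha1, Pdk3, Pgk1 and Pfkfb1 lie on the X chromosome, and Xist was far higher in the deeper sham than in the other 4 libraries, whose part in their values was not tested.

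The PFKFB enzymes make and break fructose 2,6-bisphosphate, the main activator of phosphofructokinase. Pfkfb3, the form with the strongest kinase activity, had 884 and 862 normalized reads in sham and 1250, 1499 and 906 in stroke. The sham values were almost equal and stroke C lay just above them. Pfkfb3 stands in the authors' deposited table at 0.48 on the log2 scale (SE 0.28, adjusted p = 0.579). Pfkfb2 had 535 and 553 in sham and 531, 492 and 485 in stroke, below sham by a few reads in stroke A. Pfkfb1 was the scarcest of the 36 genes, with 16.4 and 31.8 in sham and 13.8, 12.4 and 17 in stroke, and the authors' deposited table puts it lowest of the 36 in log2 fold change, at -0.75 (SE 0.74, adjusted p = 0.878). Pfkfb4 overlapped between groups.

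Of the related genes outside the list, 46 of 55 had an adjusted p and 0 were called in either direction. Of all tested genes 0.775% were called higher and 0.786% lower. The related genes were other isoforms of the same steps, transporter chaperones, the rest of the pyruvate dehydrogenase complex, gluconeogenesis, NADH shuttles and the pentose phosphate pathway. The median log2 fold change of these lists ran from -0.19 to 0.06 in the authors' deposited table. Bsg, the chaperone that brings MCT1 to the membrane, stands in the authors' deposited table at -0.1 (SE 0.21, adjusted p = 0.961). For the NADH shuttle genes Mdh1 and Got1 the authors' deposited table lists 0.08 (SE 0.21, adjusted p = 0.974) and 0.03 (SE 0.23, adjusted p = 0.991). Tkt and Taldo1 of the pentose phosphate pathway depended on the sham library as Pfkl did: Tkt had 1996 and 3531 normalized reads in sham and 3581, 3385 and 3264 in stroke.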

How the data were processed

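Polyadenylated RNA of 2 sham and 3 stroke libraries was sequenced from stranded libraries, per the labels' protocols. Per the submitters' processing notes, the tools were STAR 2.5.2b, DESeq2 1.14.1, featureCounts 1.5.1 and FastQC, on GRCm38, and no parameters are stated. The authors deposited 1 table of their own stroke against sham comparison: a mean normalized count per gene (a signal), a log2 fold change with its SE, a Wald score, and p-values with adjusted p-values. Main results are those deposited values, with an adjusted p threshold of 0.05.

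Whole reads per library were recovered with Python 3.11.15, numpy 2.4.6 and numba 0.67.0. Size factors were started from genes with 1 read and then refitted by least squares over 1202 recovered genes of low mean. A gene was accepted only when exactly 1 set of 5 whole numbers gave its deposited mean and fold change and met a dispersion condition. The dispersion giving the deposited error had to match a fitted trend and prior, or, for genes well above the trend, the gene's own estimate. Of 16411 genes tried 16179 were accepted, and of 1000 rows whose values were shifted on purpose 0 were accepted. Genes with a mean above 5000 were tried only when listed here, up to 11000. limma 3.58.1 (R 4.3.3, trend and robust) was fitted to log2(normalized reads + 1) of all recovered genes, with Benjamini-Hochberg adjustment; it and the read recovery were tested on simulated data. A ratio of 2 genes' reads is within a library; the pairs were chosen after their values were seen.

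The genes and lists were chosen with earlier results of these data known. Full statistics were given to genes with an adjusted or unadjusted p under 0.05, the 3 highest and 3 lowest fold changes and the 3 highest means; of related lists, called genes and up to 2 of the highest means, to which Tkt, Taldo1 and other members were added after their values were seen. Marker lists tried were neuron, astrocyte, oligodendrocyte, microglia, endothelium, erythrocyte, choroid plexus, skeletal muscle and neutrophil.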

Additional observations from a re-analysis of the deposited data

How the results depend on the processing

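The count of 1 gene called higher rests on Eno1 and was not stable. It was 0 with p-values adjusted over every gene with a p-value (Eno1 adjusted p = 0.0521), 0 against a fold change of 1.5, 0 with limma on recovered reads, and 2 with fold changes centred on the median of all tested genes, where Ldha joined (adjusted p = 0.0499); with limma and 1 library left out it ran from 0 to 5. It was 2 without the deeper sham (Pfkl and Eno1), 5 without the shallower sham (Gapdh, Pgk1, Pgam1, Mpc1 and Eno1), and 0 without any 1 of the stroke libraries. Over all recovered genes limma called 3 higher and 1 lower with all libraries, 1465 and 1482 without the deeper sham, and 337 and 208 without the shallower, with the lone sham assumed to vary like stroke. No gene was called lower in these settings, of 36 tested with the deposited values (31 once genes below 5 CPM were left out) and 32 with limma, which had no reads for Aldoa, Aldoc, Eno2 and Pkm. The median log2 fold change stayed between 0.22 and 0.34 with 1 library left out. Eno3 turned from -0.43 to 0.19 without the deeper sham and was at -0.87 without the shallower, and the cause was not tested. No paired analysis was possible because the deposited table has no library columns that carry the replicate numbers. The planned edgeR fits and a DESeq2 refit were not run. Depth limits Pfkfb1, whose mean is 18.3 normalized reads.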

Other observations

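Of the markers of other cell types, the 6 microglia markers summed to 2230 and 4475 normalized reads in the shallower and deeper sham and to 4187, 4844 and 4118 in stroke, which overlap. The 3 neutrophil markers measured summed to 17.7 and 86.8 in sham and to 67.4, 91.9 and 54.6 in stroke. Of 6 oligodendrocyte markers, the 3 with recovered reads summed to 6338 and 13073 in sham and to 9252, 8586 and 9409 in stroke, all between the sham values. Of 8 neuron markers, the 3 with recovered reads summed to 17274 and 21070 in sham and to 24178, 22344 and 18287 in stroke, which overlap. Hk3, the hexokinase of myeloid cells, had 4.09 and 19.1 normalized reads in sham and 9.51, 32.7 and 64.5 in stroke, and the authors' deposited table puts its log2 fold change at 1.6 (SE 0.99, adjusted p = 0.643). Slc16a6, a monocarboxylate transporter family member, had 347 and 406 in sham and 748, 585 and 518 in stroke, all above sham, and the authors' deposited table puts it at 0.71 (SE 0.27, p = 0.00862, adjusted p = 0.211). Pdp2, a phosphatase that switches pyruvate dehydrogenase on, went the other way, with 535 and 351 in sham and 246, 333 and 289 in stroke, all below sham, and the authors' deposited table puts it at -0.61 (SE 0.31, p = 0.0453, adjusted p = 0.453). Slc16a6 and Pdp2 are the 2 of the 46 related genes with an unadjusted p under 0.05, and neither was called. Of all tested genes in the authors' deposited table, 4.84% were higher and 5.66% lower at that unadjusted p.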
